A study of Mus musculus with 16 samples.

Results

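The genes described here are 50 interferon-stimulated genes, chosen by name as textbook targets of type I and type II interferon. They were not picked by a rule on values, but earlier results of these data were known when the list was made. Each gene was matched by its symbol to the gene list deposited with the matrices. All 50 were found once among the 30784 genes of the lung and mesenteric lymph node (MLN) matrices, without T cell receptor (TCR) genes, and 49 among the 32016 genes of the matrix of mediastinal lymph node (medLN) and MLN. *Mx1* was not analysed in the second matrix. The cells were CD4+ T cells of female 4get mice on a C57BL/6 background. These mice carry an IL-4eGFP reporter that lights up cells with an open *Il4* locus, including early Th2 cells and some innate-like T cells. Every mouse had received 500 third-stage larvae of the hookworm-like nematode *Nippostrongylus brasiliensis* (Nb) under the skin 10 days earlier, so no uninfected mouse was compared. In the first experiment IL-4eGFP+ cells of perfused, enzyme-digested lung and of MLN came from 2 mice aged 13 weeks, with 1 library per organ and mouse (lung 1, lung 2, MLN 1 and MLN 2). Perfused lung still held some cells from blood vessels. In the second experiment medLN and MLN cells of 2 other mice aged 10 weeks were tagged with hashtag antibodies by organ and mouse. The tagged cells were pooled into 1 library of IL-4eGFP+ cells and 1 library of IL-4eGFP- cells, which gave 4 hashtag samples per gate. With 2 mice per group, p-values between organs measure the spread between these mice and no wider one. Between the gates, the 4 hashtag samples of a gate came from 2 mice and entered the main test without a term for the mouse. Those p-values measure the spread between hashtag samples and not that between mice.

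Interferons are secreted proteins that warn cells of infection. Type I interferons (the alpha and beta forms) act through the receptor chains IFNAR1 and IFNAR2 and the kinases JAK1 and TYK2, and drive a complex that holds STAT2 and IRF9 to interferon-stimulated response elements in DNA. Interferon gamma acts through IFNGR1 and IFNGR2 with JAK1 and JAK2, and acts on another element, the gamma-activated site. The target genes block virus entry, RNA translation and replication, sense foreign nucleic acids, mark or destroy vacuoles that hold microbes, and feed back on the pathway. T cells in lymphoid tissue show a low level of this programme even without a virus infection, and dendritic cells are known to respond to type I interferon during type 2 responses. A nematode response is led by type 2 cytokines such as IL-13, and the interferon programme is read here beside it, in Th2 cells of different organs.

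The response element is written into the promoters of many of the genes, and the stretches that hold it are shown for the 6 genes with the largest called differences between lung and MLN whose RefSeq promoter held it. RefSeq promoters of build GRCm38.p6 (250 bases before to 50 bases after the start of transcription) were given for 39 of the 50 genes. The motif searched was GAAANNGAAA or its reverse complement TTTCNNTTTC, so that both strands were read, a pair of GAAA sites 2 bases apart. It stood in 21 of the 39 promoters (53.8%) and in 1079 of all 27025 promoters in the table (3.99%). The gamma-activated motif TTCNNNGAA stood in 7 of the 39 (17.9%) and in 2582 of the 27025 (9.55%). Capitals mark the sites, and sequences run 5′ to 3′ on the strand of the gene.
*Ifit3*, chr19:34583343-34583446, plus strand: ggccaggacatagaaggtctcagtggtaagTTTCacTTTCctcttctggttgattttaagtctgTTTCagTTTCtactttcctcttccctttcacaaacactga
*Ifit1*, chr19:34640755-34640843, plus strand: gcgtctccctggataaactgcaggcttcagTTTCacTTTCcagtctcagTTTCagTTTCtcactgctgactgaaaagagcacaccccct
*Ifit3b*, chr19:34607739-34607842, plus strand: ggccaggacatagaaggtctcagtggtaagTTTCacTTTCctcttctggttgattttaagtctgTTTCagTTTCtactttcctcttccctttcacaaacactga
*Oas1a*, chr5:120907526-120907575, minus strand: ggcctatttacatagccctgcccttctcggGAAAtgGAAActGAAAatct
*Isg15*, chr4:156200845-156200926, minus strand: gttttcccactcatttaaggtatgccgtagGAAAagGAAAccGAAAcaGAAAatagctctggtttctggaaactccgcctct
*Rsad2*, chr12:26456533-26456602, minus strand: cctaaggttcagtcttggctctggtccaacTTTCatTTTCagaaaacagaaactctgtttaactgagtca
In *Isg15* 3 overlapping pairs made a run from -78 to -57 of the transcription start, and in *Oas1a* 2 overlapping pairs lay from -20 to -5. *Ifit3*, *Ifit3b* and *Ifit1* each held 2 pairs in the reverse orientation. The *Ifit3* and *Ifit3b* stretches were identical over all 104 bases. These genes are near copies of each other, and reads could be split between them, so their separate values are uncertain. By role, the pair was found in 3 of 4 IFIT promoters, 5 of 6 interferon-inducible GTPase promoters, 2 of 2 sensor promoters and 2 of 8 promoters of the genes with other functions. Among the genes called lower in lung 10 of 22 promoters held it (45.5%), and among the other genes tested there 11 of 17 did (64.7%). A match describes letters in a window and is no measurement of binding.

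Unique molecular identifiers (UMIs, 1 per captured RNA molecule) of the kept cells were summed per sample, and levels are given as CPM (UMIs of a gene per 1000000 UMIs of its sample). Because this 5′ assay counts molecules, CPM can be compared between genes without scaling for length. Lung held 1082 and 416 cells and MLN 2462 and 754 cells with a TCR alpha and beta chain, and the 8 hashtag samples held 1992 to 2249 cells each. Total UMIs per sample ran from 2789698 in lung 2 to 14441242 in MLN 1, and the median UMIs per cell from 3150.5 to 6891. The sum of the Th2 markers *Il4*, *Gata3* and *Il1rl1* was 1423 to 1736 CPM in lung, 558 to 618 CPM in MLN, 344 to 387 CPM in the IL-4eGFP+ node samples and 31.6 to 45.4 CPM in the IL-4eGFP- ones. *Il4* itself was at 0 to 3 UMIs in the IL-4eGFP- samples. T cell markers were found in every sample, *Ms4a1* of B cells was at 0 UMIs in all 4 lung and MLN libraries, and *Sftpc* of lung epithelium was at 0 UMIs everywhere. Other B cell markers were present, with *Cd79b* at 35 and 10 UMIs in MLN 1 and MLN 2. *Ighm* stood at 93.0 and 126 CPM in lung and 237 and 261 CPM in MLN. At most 8 cell barcodes were shared between libraries of the first experiment and 147 between the 2 gates of the second.

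The 50 genes together took 2389 and 3601 CPM in lung 1 and lung 2 and 7187 and 4271 CPM in MLN 1 and MLN 2. The 49 genes of the node experiment took 5131, 3772, 4506 and 4143 CPM in IL-4eGFP+ medLN 1, medLN 2, MLN 1 and MLN 2, and 5400, 4189, 4870 and 5281 CPM in the same order in IL-4eGFP- cells. Lung 1 was thus the lowest of the 12 samples and MLN 1 the highest, also within the first experiment alone. The 2 experiments differed in mice, cell criteria and Cell Ranger version, so levels are not directly comparable between them. *Ifi27l2a*, a small interferon-induced membrane protein gene, was the most abundant of the genes in every sample, from 777 to 3200.2 CPM. *Sp100*, which codes for a nuclear body protein, *Isg15*, *Slfn1*, a Schlafen gene that restrains T cell growth, and *Ifi47*, an immunity-related GTPase gene, were next, with highest levels of 497, 403, 327 and 420.0 CPM. At the other end *Ifi44*, *Gbp3* and *Oas2* reached at most 4.67, 11.8 and 13.5 CPM, and *Oas2* was too low to be tested between lung and MLN.

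**Figure D1:**
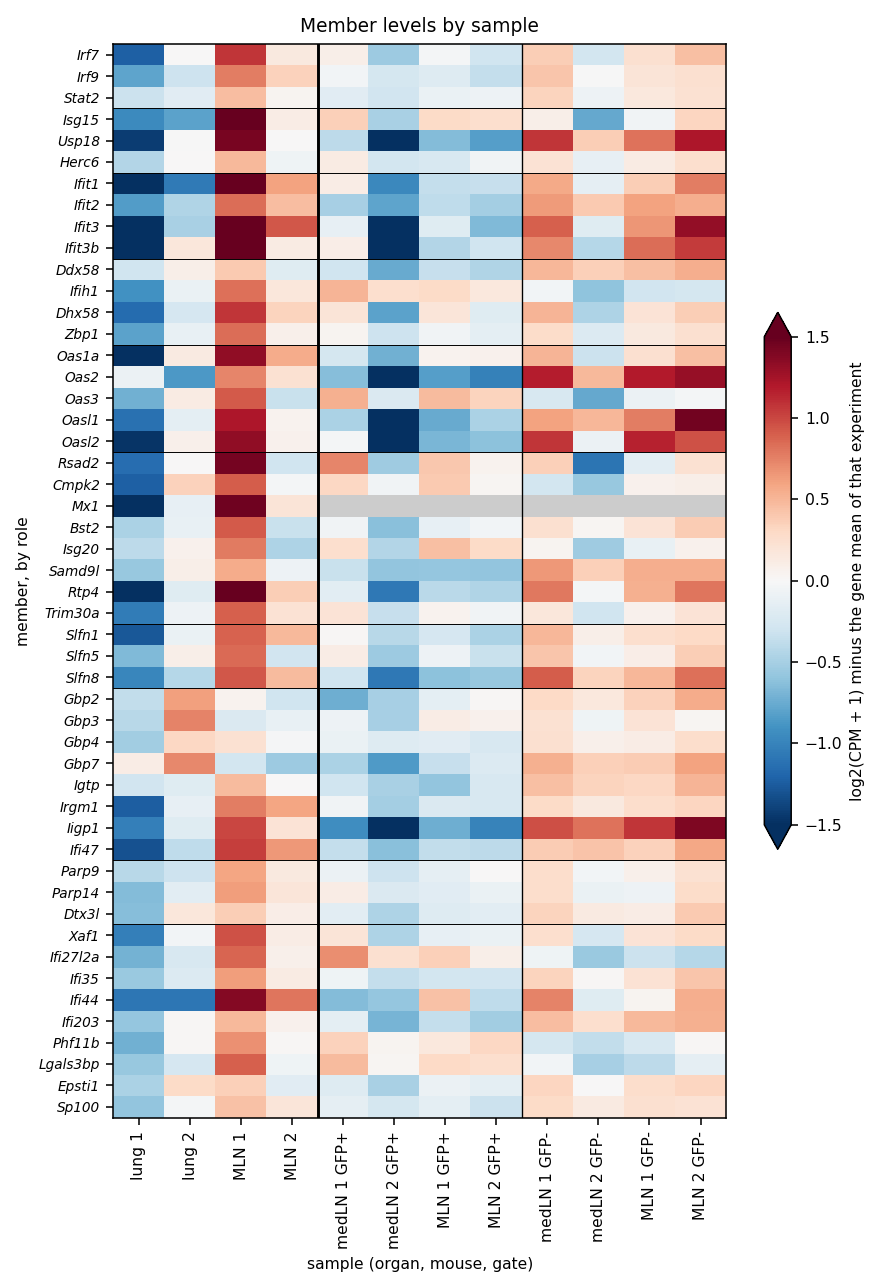
Level of each gene (rows, grouped by role) in each of the 12 samples (columns: organ, mouse and gate), as log2(CPM + 1) minus the mean of that gene over the samples of the same experiment. GFP+ and GFP- in the column names stand for the gates. Lung 1 is the bluest column and MLN 1 the reddest of the first experiment, and *Usp18*, *Oas2*, *Oasl1* and *Iigp1* are red in all 4 IL-4eGFP- columns. Grey marks *Mx1*, not analysed in the node samples.

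Between lung and MLN the genes were on balance lower in lung. Of the 49 tested, 31 were lower and 1 was higher at an adjusted p below 0.05 in edgeR's quasi-likelihood test, with a median log2 fold change (lung minus MLN) of -1.06. Over all 10587 genes tested the median was -0.0052, and 31% were called in either direction, 14% lower and 17% higher. By library totals alone, without the scaling factors of edgeR (trimmed mean of M values, TMM), the median of all genes was -0.15, and 32 of these genes were called lower and 1 higher (19.4% and 12.4% of all genes). After TMM scaling, both lung libraries lay below both MLN libraries for 29 of the 49 genes (34.2% of all genes tested) and above both for 1 (33.6%). In sums of this kind, fewer cells with a transcript and less of it per cell cannot be told apart, and the spread over cells is given further on. Lung alone was digested with enzymes, so that organ and digestion cannot be told apart either.

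The IFIT genes, whose proteins bind viral RNA and stop its translation, included some of the largest differences. They lie side by side on chromosome 19 from 34550694 to 34650009 (GRCm38), and all 4 were called lower in lung. *Ifit1* stood at 6.60 and 10.4 CPM in lung 1 and lung 2 and 101 and 35.3 CPM in MLN 1 and MLN 2. Both lung libraries were below both MLN libraries, and MLN 1 was far above MLN 2, with a log2 fold change of -3.03 ± 0.47 (SE, edgeR adjusted p = 0.00114). *Ifit3* stood at 0.236 and 3.58 CPM in lung 1 and lung 2 and 23.6 and 11.2 CPM in MLN 1 and MLN 2, which rests on 2 and 10 UMIs in lung. Lung 1 was near 0 and the groups did not overlap, with a log2 fold change of -3.85 ± 0.67 (SE, edgeR adjusted p = 0.00236). Its near copy *Ifit3b* stood at 0.354 and 5.38 CPM in lung 1 and lung 2 and 18.4 and 5.17 CPM in MLN 1 and MLN 2. Lung 2 was slightly above MLN 2, so the groups overlapped, although the log2 fold change was -2.73 ± 0.82 (SE, edgeR adjusted p = 0.0316). *Ifit2* stood at 3.06 and 4.30 CPM in lung 1 and lung 2 and 12 and 8.98 CPM in MLN 1 and MLN 2, with no overlap and a log2 fold change of -1.49 ± 0.29 (SE, edgeR adjusted p = 0.00411).

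*Isg15* encodes a ubiquitin-like protein that is attached to other proteins, and it was the highest gene of the ISG15 system. It stood at 64.8 and 72.4 CPM in lung 1 and lung 2 and 403 and 137 CPM in MLN 1 and MLN 2. The lung libraries were close to each other and below both MLN libraries, which differed from each other more than lung differed from MLN 2, and the log2 fold change was -1.87 ± 0.39 (SE, edgeR adjusted p = 0.00607). *Usp18*, which removes ISG15 and dampens signals from IFNAR2, stood at 3.54 and 11.1 CPM in lung 1 and lung 2 and 31.6 and 11.2 CPM in MLN 1 and MLN 2. Lung 2 and MLN 2 were nearly equal, while lung 1 was the lowest and MLN 1 the highest, with a log2 fold change of -1.82 ± 0.52 (SE, edgeR adjusted p = 0.026). *Herc6*, the ligase that attaches ISG15 in mice, was not called, with a log2 fold change of -0.42 ± 0.21 (SE, edgeR adjusted p = 0.152).

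*Irf7*, the transcription factor that amplifies type I interferon, stood at 31.2 and 74.9 CPM in lung 1 and lung 2 and 158 and 82.4 CPM in MLN 1 and MLN 2. Lung 1 was the lowest and lung 2 came close to MLN 2, with a log2 fold change of -1.19 ± 0.35 (SE, edgeR adjusted p = 0.0303). *Irf9*, the DNA-binding part of the complex with STAT2, stood at 27.1 and 38.4 CPM in lung 1 and lung 2 and 81.9 and 60.9 CPM in MLN 1 and MLN 2, with lung below MLN in both mice and a log2 fold change of -1.06 ± 0.18 (SE, edgeR adjusted p = 0.00186). Its partner *Stat2* was not called, with a log2 fold change of -0.44 ± 0.18 (SE, edgeR adjusted p = 0.0852).

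Of the 4 nucleic acid sensors 3 were called lower in lung. *Zbp1*, a sensor of left-handed nucleic acids and the highest of them, stood at 39.5 and 64.2 CPM in lung 1 and lung 2 and 125 and 73.4 CPM in MLN 1 and MLN 2. The lung libraries were below both MLN libraries, lung 2 by a small margin, and the log2 fold change was -0.89 ± 0.25 (SE, edgeR adjusted p = 0.0233). *Ifih1* (MDA5) and *Dhx58* (LGP2), both sensors of double-stranded RNA, had log2 fold changes of -1.10 and -1.63, with edgeR adjusted p values of 0.0156 and 0.00598. *Ddx58* (RIG-I), the sensor of RNA ends, was not called, at -0.17 ± 0.19 (SE, edgeR adjusted p = 0.545) on the log2 scale.

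The OAS genes encode enzymes that activate RNase L, or their inactive relatives. *Oasl1*, an inactive relative that blocks *Irf7* translation, stood at 0.236 and 1.43 CPM in lung 1 and lung 2 and 5.26 and 1.80 CPM in MLN 1 and MLN 2. These levels rest on 2 and 4 UMIs in lung, and MLN 1 was the only library above 2 CPM, with a log2 fold change of -2.64 ± 0.76 (SE, edgeR adjusted p = 0.0262). *Oas3*, the highest of the family, stood at 9.55 and 17.9 CPM in lung 1 and lung 2 and 31.8 and 12.8 CPM in MLN 1 and MLN 2. Lung 2 was above MLN 2, so the groups overlapped and the log2 fold change of -0.80 ± 0.38 (SE, edgeR adjusted p = 0.144) was not called. *Oas1a* and *Oasl2* were called lower, with log2 fold changes of -2.09 and -2.10 and edgeR adjusted p values of 0.0172 and 0.0333.

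Among the 8 other antiviral effectors 4 were called lower in lung. *Rtp4*, an interferon-induced zinc finger protein gene, stood at 5.78 and 24.7 CPM in lung 1 and lung 2 and 109 and 36.8 CPM in MLN 1 and MLN 2. Lung 1 was the lowest by far and both lung libraries were below MLN, with a log2 fold change of -2.52 ± 0.58 (SE, edgeR adjusted p = 0.01). *Bst2* (tetherin), which holds budding viruses on the cell, stood at 69.9 and 90.3 CPM in lung 1 and lung 2 and 186 and 77.5 CPM in MLN 1 and MLN 2. MLN 1 was high while MLN 2 lay between the lung libraries, and the log2 fold change of -0.64 ± 0.32 (SE, edgeR adjusted p = 0.156) was not called. *Mx1*, a dynamin-like blocker of influenza virus whose allele is defective in C57BL/6 mice, *Rsad2* (viperin), which makes a chain-ending nucleotide, and *Trim30a*, a ubiquitin ligase, were called lower, at log2 fold changes of -2.22, -1.65 and -1.11. *Cmpk2*, a mitochondrial nucleotide kinase, *Isg20*, an RNA exonuclease, and *Samd9l*, a brake on translation, were not called, at -1.07, -0.40 and -0.49.

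*Slfn1* of the Schlafen family stood at 66.5 and 151 CPM in lung 1 and lung 2 and 301 and 227 CPM in MLN 1 and MLN 2. Lung 1 was the lowest and the groups did not overlap, with a log2 fold change of -1.22 ± 0.28 (SE, edgeR adjusted p = 0.00872). *Slfn8* was called lower as well, at -1.45 ± 0.21 (SE, edgeR adjusted p = 0.000928), and *Slfn5* was not called, at -0.65 ± 0.33 (SE, edgeR adjusted p = 0.162). *Parp14*, a mono-ADP-ribosyltransferase, stood at 33.8 and 47.7 CPM in lung 1 and lung 2 and 83.4 and 60.6 CPM in MLN 1 and MLN 2. The groups did not overlap, and the log2 fold change was -0.75 ± 0.18 (SE, edgeR adjusted p = 0.0112). *Parp9* was called at a log2 fold change of -0.66, while its partner ligase *Dtx3l* was not, at -0.40.

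The interferon-inducible GTPases, which coat and break vacuoles that hold microbes, divided. *Ifi47* stood at 45.7 and 87.1 CPM in lung 1 and lung 2 and 235 and 179.9 CPM in MLN 1 and MLN 2. Both lung libraries were below both MLN libraries, and the log2 fold change was -1.59 ± 0.23 (SE, edgeR adjusted p = 0.000741). *Irgm1* and *Iigp1*, immunity-related GTPases like *Ifi47*, were also called lower, at log2 fold changes of -1.32 and -1.85. *Gbp7*, a guanylate-binding protein gene at chr3:142530342-142550149, was the single gene called higher in lung. It stood at 41.1 and 63.1 CPM in lung 1 and lung 2 and 31.1 and 25.6 CPM in MLN 1 and MLN 2. Both lung libraries were above both MLN libraries, with a log2 fold change of 0.94 ± 0.18 (SE, edgeR adjusted p = 0.00345). The guanylate-binding protein genes *Gbp2* and *Gbp3* pointed the same way without a call, at 0.31 and 0.47, and were called higher when lung 1 was left out. *Gbp4* and *Igtp* were not called, at -0.11 and -0.38.

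Of the 9 remaining genes 6 were called lower in lung. *Ifi27l2a* stood at 1071 and 1481 CPM in lung 1 and lung 2 and 3200.2 and 1839 CPM in MLN 1 and MLN 2. All 4 levels were high, lung lay below MLN, and the log2 fold change was -0.86 ± 0.24 (SE, edgeR adjusted p = 0.0225). *Ifi44*, an interferon-induced cytoplasmic protein gene, had 0 UMIs in both lung libraries and 77 UMIs in the MLN libraries. With a floor of 3 UMIs over the lung group it was at least 15.3-fold lower in lung. *Xaf1*, a promoter of cell death, *Ifi35*, *Lgals3bp*, a secreted glycoprotein gene, and *Sp100* were called lower at log2 fold changes of -1.10, -0.69, -0.83 and -0.50. *Ifi203*, of the DNA-binding p200 family, *Phf11b* and *Epsti1* were not called, at -0.46, -0.67 and -0.10.

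**Figure D2:**
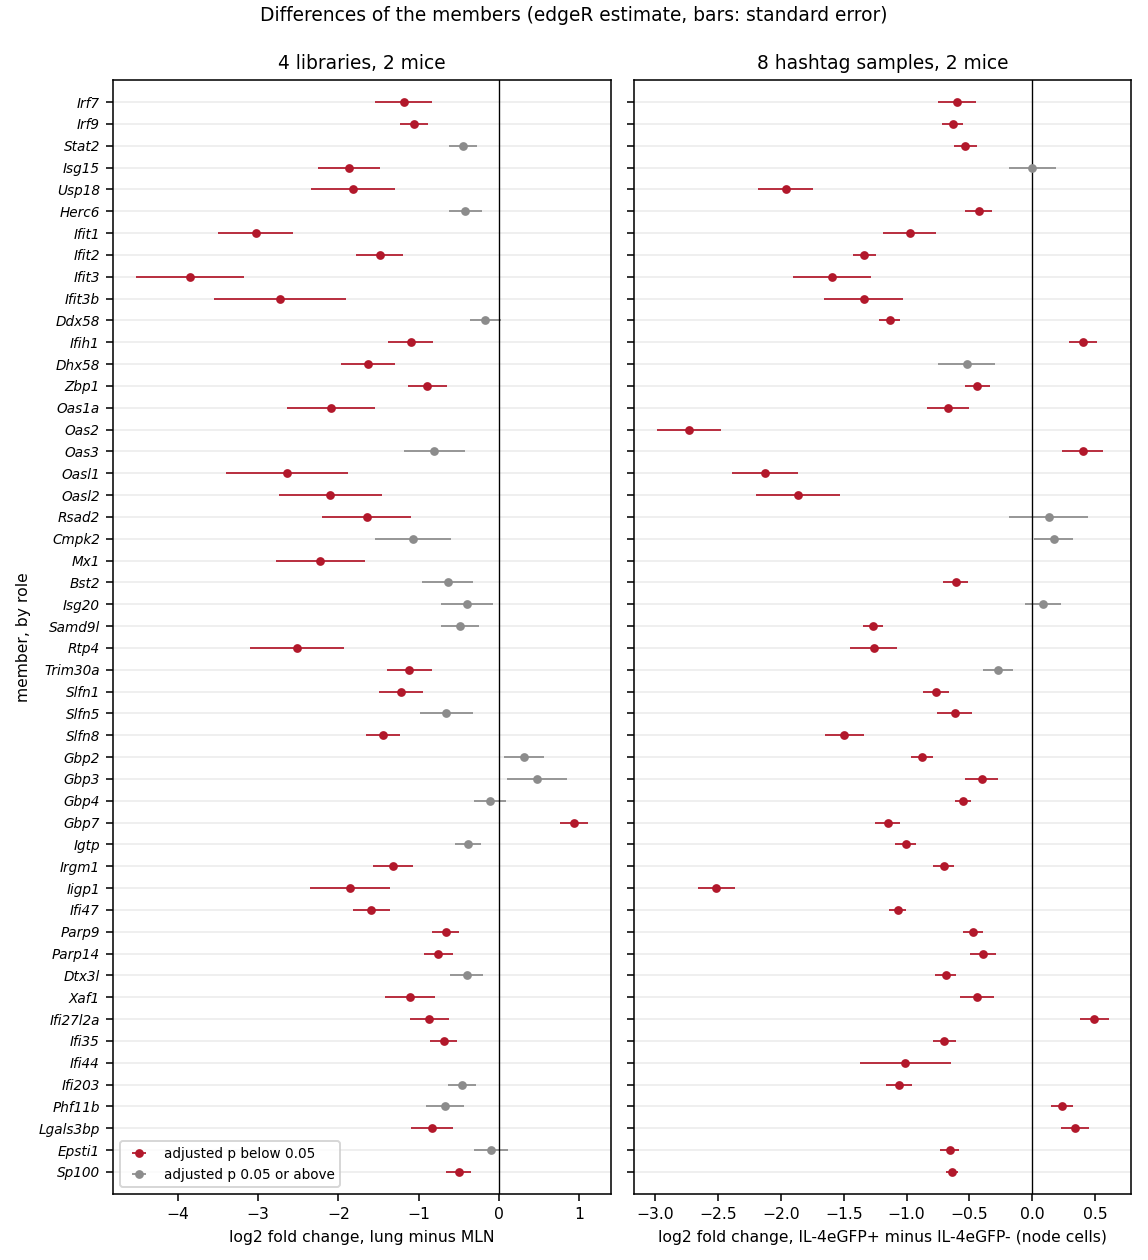
Log2 fold change of each gene (rows, by role) from edgeR, for lung minus MLN on the left and IL-4eGFP+ minus IL-4eGFP- node cells on the right. Bars are standard errors worked back from the F statistic of the test. Red points had an adjusted p below 0.05, *Ifi44* is left out of the left panel because both lung libraries were at 0, *Oas2* because it was not tested there, and *Mx1* is absent from the right panel. The left panel lies left of 0 except for *Gbp2*, *Gbp3* and *Gbp7*, and the right panel holds 38 red points left of 0 and 5 right of it.

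The 2 mice of the first experiment did not show the lung and MLN difference to the same extent. After TMM scaling, 48 of the 49 genes were lower in lung in mouse 1, with a median log2 difference of -1.51, and in mouse 2 29 were lower and 20 higher, with a median of -0.13. The matching shares of all genes within each mouse were not computed. Without MLN 1, 10 of 47 genes were called, 9 of them lower (18.2% of all genes called), and without lung 1, 18 of 49 were, 15 of them lower (22.7% of all genes called). Without lung 2 or MLN 2 the number was 40 and 43 (32.8% and 20.2% of all genes). The genes called without MLN 1 were *Irf9*, *Isg15*, *Ifit1*, *Ifit3*, *Rtp4*, *Slfn1*, *Slfn8*, *Irgm1* and *Ifi47*, all lower in lung, and *Gbp7*. With DESeq2 14 genes were called, 13 of them lower (17.3% of all genes called). With the mouse as a block 42 were called (36.7% of all genes). *Irf9*, *Ifit1*, *Slfn8*, *Irgm1*, *Ifi47* and *Gbp7* kept their call in every setting tried. No called gene changed sign in any of these settings. Without MLN 1 the genes were called about as often as all genes. The shares of all genes called lower are not given for the fits without a library, with DESeq2 or with the block.

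Other readings moved with the organ. The B cell marker sum (5 genes, mostly *Ighm*) was 93.7 and 127 CPM in lung and 239 and 264 CPM in MLN, and *Lyz2*, *C1qa* and *C1qb* of macrophages were at 0 in lung and at 2.15 to 15.2 CPM in MLN. The sum of all 6 myeloid markers did not part the organs, at 129 and 123 CPM in lung and 121 and 139 CPM in MLN. *Cst3*, the most abundant of them, was higher in lung, at 129 and 123 CPM against 100 and 107 CPM. Cells with a UMI of a defining B cell or myeloid marker numbered 4 and 0 in lung and 57 and 36 in MLN. Without them 30 of the 49 genes were called, 29 lower (30.7% of all genes called). Leaving out cells with any UMI of the B cell or myeloid markers took out most cells, such as 800 of 1082 in lung 1. It kept 23 of the 32 calls, while 7 called genes were no longer tested and 5 others were newly called. The share of all genes called in that setting is not given, so this count has no background beside it. Lung cells also held more UMIs than MLN cells (medians 6891 and 5734 against 4951.5 and 4932.5), and with every cell thinned to 2000 UMIs 30 of 45 genes were called, 29 lower (24.2% of all genes called).

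The pathway genes around these targets did not share a direction. They were interferon ligands, receptors, receptor kinases, STATs and IRFs, feedback inhibitors and DNA sensing genes. Of the 24 pathway genes tested between lung and MLN, 6 were called higher in lung and 5 lower (17% and 14% of all genes), with a median log2 fold change of 0.16. Among the ligands *Ifnb1*, 4 interferon alpha genes, *Ifne* and 2 interferon lambda genes had 0 UMIs in all 12 samples, which at 3 UMIs allows up to 1.08 CPM in the shallowest, lung 2. *Ifng*, the type II ligand, stood at 11.2 and 19.7 CPM in lung 1 and lung 2 and 0.762 and 0.674 CPM in MLN 1 and MLN 2. Lung was above MLN in both mice, with a log2 fold change of 4.40 ± 0.38 (SE, edgeR adjusted p = 3.06e-05). Both chains of its receptor were higher in lung, *Ifngr1* at 293 and 267 CPM in lung 1 and lung 2 and 40.4 and 41.5 CPM in MLN 1 and MLN 2 and *Ifngr2* at 99.1 and 89.3 CPM in lung 1 and lung 2 and 28.8 and 32.3 CPM in MLN 1 and MLN 2. The groups were far apart, with log2 fold changes of 2.91 ± 0.14 (SE, edgeR adjusted p = 9.43e-07) and 1.79 ± 0.14 (SE, edgeR adjusted p = 1.56e-05).

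The type I receptor chains went opposite ways. *Ifnar1* stood at 124 and 143 CPM in lung 1 and lung 2 and 51.2 and 55.7 CPM in MLN 1 and MLN 2, higher in lung without overlap, with a log2 fold change of 1.45 ± 0.11 (SE, edgeR adjusted p = 1.4e-05). *Ifnar2* stood at 50.9 and 66.0 CPM in lung 1 and lung 2 and 96.0 and 88.0 CPM in MLN 1 and MLN 2, lower in lung without overlap, with a log2 fold change of -0.55 ± 0.12 (SE, edgeR adjusted p = 0.00872). The kinases *Jak1*, *Jak2* and *Tyk2* were not called, at 0.13, 0.39 and 0.36, nor were the feedback inhibitors *Socs1* and *Socs3*, at 0.16 and -0.013.

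Summed over each cell, the genes were spread unevenly. Every cell was thinned to 2000 UMIs, and cells below that depth were left out. The mean number of UMIs from these genes per 2000 was 4.84 and 7.76 in lung 1 and lung 2 and 15.0 and 8.59 in MLN 1 and MLN 2. Much of it came from *Ifi27l2a*, which took 1071 of 2389 CPM in lung 1 and 3200.2 of 7187 CPM in MLN 1. *Isg20* and *Bst2*, left out with it below, had means of 60.4 and 106 CPM over the 4 libraries. That was less than *Sp100*, which was kept, at 245 CPM. Without *Ifi27l2a*, *Isg20* and *Bst2* the means were 2.50 and 4.41 in lung 1 and lung 2 and 8.01 and 4.90 in MLN 1 and MLN 2. With all genes counted, the median cell held 3 and 5 UMIs of them in lung and 10 and 6 in MLN. Cells with 20 or more made up 2.72% of 1068 in lung 1 (exact 95% interval 1.83% to 3.88%), 7.84% of 408 in lung 2 (5.43% to 10.9%), 24.7% of 2409 in MLN 1 (23.0% to 26.5%) and 7.94% of 743 in MLN 2 (6.1% to 10.1%). MLN 1 stood alone at the top and lung 1 at the bottom, while the intervals of lung 2 and MLN 2 overlapped almost fully. The intervals cover counting error over cells only. Near the limit of 20, between 18 and 21, lay 10 cells of lung 1 and 162 of MLN 1. The top 10% of cells by this sum held 36.8% and 38.7% of all UMIs of the genes in lung and 32.8% and 33.9% in MLN. RNA free in the droplets was not measured, and its part in these sums was not tested.

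Cells with 20 or more tended to be slightly shallower than the others of their sample. Their median total was lower in 9 of the 12 samples and higher in 3, from 0.872 to 1.02 times that of the others. Their mean T cell marker sum was higher in 6 samples and lower in 6, from 0.897 to 1.12 times. Their mean Th2 marker sum was also higher in 6 and lower in 6, from 0.409 to 1.34 times. Both extremes were in IL-4eGFP- samples, where these markers were scarce. Per 2000 UMIs the Th2 marker sum was 0.516 against 0.764 in IL-4eGFP+ MLN 2 and 4.03 against 3.67 in lung 1. In MLN 1 their median total was 5077 UMIs against 4973 in the other cells, and their mean T cell marker sum 8.63 against 8.65 per 2000 UMIs. The mean Th2 marker sum was 1.21 against 1.20. A defining B cell or myeloid UMI was found in 3.36% of them and in 2.04% of the others, and in lung in 0 of 29 and 0 of 32.

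**Figure D3:**
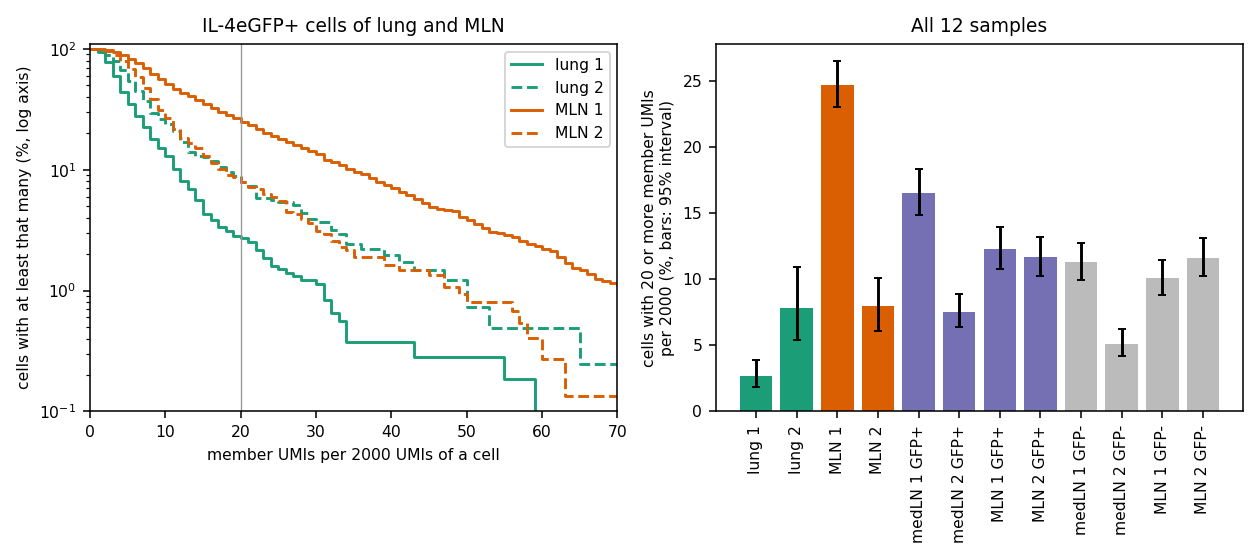
Left, share of cells (%, log axis) with at least a given number of UMIs of the interferon-stimulated genes per 2000 UMIs of the cell, for the 4 lung and MLN libraries. Right, share of cells with 20 or more in all 12 samples, with exact 95% binomial intervals as bars. MLN 1 reaches 24.7% and lung 1 2.72%, and lung 2 and MLN 2 run together.

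The genes differed in how far their transcripts sat in the same cells. For each gene the cells of a sample were ordered by the sum of the other genes, and the share of the gene's UMIs in the top 10% of cells was taken. A gene unrelated to the rest would put 10% there. *Ifit3* had 83.6% of its UMIs in those cells in the pooled lung and MLN libraries, 92.5% in the IL-4eGFP+ node samples and 84.4% in the IL-4eGFP- ones. *Ifit3b*, *Rsad2*, *Ifit1*, *Oasl2* and *Usp18* also had medians over the samples above 65%. *Isg15* had 50.2%, 52.7% and 59.8% in the same order. At the other end *Sp100* had 17.9%, 18.9% and 17.7% and *Irf9* 17.5%, 17.9% and 21.6%. *Ifi47* (24.0%, 23.1% and 20.2%) and *Ifi27l2a* (21.5%, 20.4% and 22.5%) were close to them. *Ifi27l2a*, the most abundant gene, was thus among the genes least gathered in the cells highest for the others. For *Ifi27l2a* that order rests on a sum without the most abundant gene. The share does not measure how evenly a gene is spread over cells. Shares of genes with few UMIs are unsteady, as *Ifit3* had 1 UMI in the thinned cells of the poorest sample.

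The order of the shares in IL-4eGFP+ node cells went with the order of the lung and MLN differences measured in other mice. Over 47 genes Pearson's r between the share and the log2 fold change (lung minus MLN) was -0.75 and Spearman's rho -0.65. For the 33 genes whose mean reached 20 CPM, r was -0.60 and rho -0.30. These are correlations across genes, which are not independent replicates, and genes with few UMIs are the least exact on both axes.

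**Figure D4:**
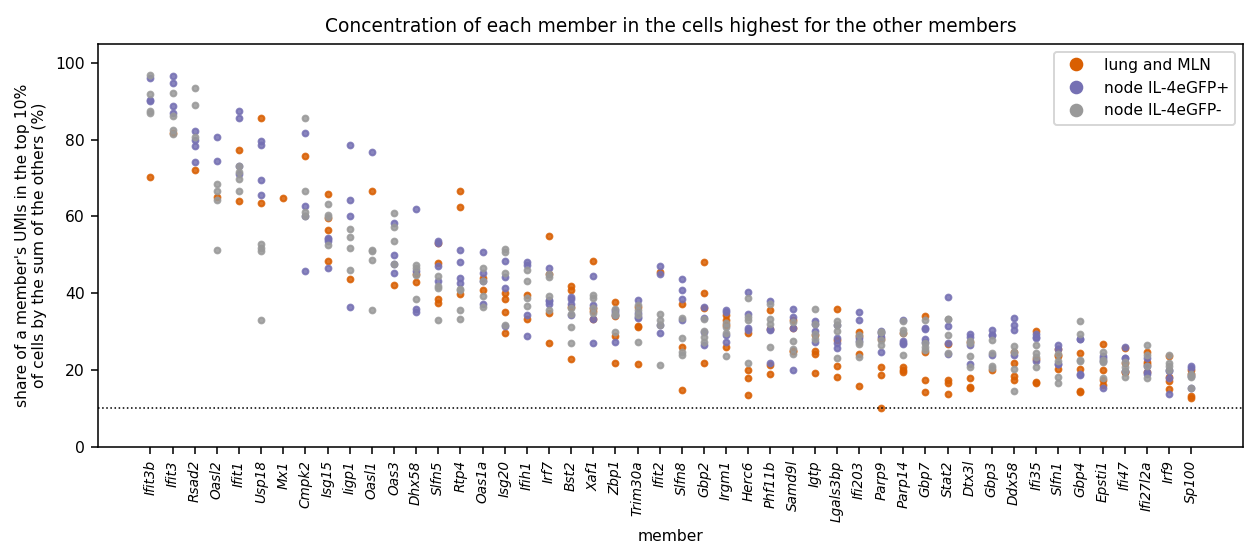
Share of each gene's UMIs (%) found in the top 10% of cells by the sum of the other genes, for genes ordered by their median (horizontal axis). Each point is 1 sample with enough UMIs, colours mark lung and MLN, IL-4eGFP+ and IL-4eGFP- node samples, and the dotted line marks 10%. *Ifit3b* and *Ifit3* lie highest and *Sp100* lowest.

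Outside the 50 genes, those whose level per cell went most closely with the sum were chosen by the lowest Pearson r over the 12 samples, among 9936 genes. Among the first 10 were *Ifi208*, *Samhd1*, *Ifi213*, *Rnf213*, *Mndal*, *Ifi214*, *Daxx*, *Ifi206* and *Ifi209*, with lowest r from 0.246 to 0.152. *Ifi208*, *Ifi213*, *Mndal*, *Ifi214*, *Ifi206* and *Ifi209* belong to the p200 family of *Ifi203*, and reads of this family can be hard to assign. These values describe single cells of 1 library each and carry no test.

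Between medLN, which drains the lung, and MLN the genes differed little in IL-4eGFP+ cells. Of 49 tested, 1 was called, *Gbp2*, lower in medLN (1.28% of all 11262 genes called, 0.604% lower). At an unadjusted p below 0.05 there were 6 (12.4% of all genes), and the median log2 fold change was -0.09. *Gbp2* stood at 25.3, 29.8, 38.5 and 43.3 CPM in medLN 1, medLN 2, MLN 1 and MLN 2. Both medLN samples were below both MLN samples, with a log2 fold change of -0.58 ± 0.11 (SE, edgeR adjusted p = 0.0441). The call was lost without medLN 1, without medLN 2, without MLN 2 and with DESeq2, which called 0 (4 at an unadjusted p below 0.05). Without medLN 1 *Isg15* was called in its place. *Gbp2* stood at 52.6, 47.7, 54.7 and 63.1 CPM in IL-4eGFP- cells in the same order, with a log2 fold change of -0.29 ± 0.10 (SE, edgeR adjusted p = 0.586).

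In IL-4eGFP- cells none of the 49 genes was called by edgeR or DESeq2 (0.178% of all 10683 genes called by edgeR), and 12 had an unadjusted p below 0.05 in edgeR and 3 in DESeq2 (6.23% of all genes in edgeR). The median log2 fold change was -0.19, and 2 genes lay above 0. Leaving out medLN 1 gave 23 called, all lower in medLN (1.76% of all genes), and leaving out MLN 1 gave 15 (1.6% of all genes). Without MLN 2 there were 2 (1.26%) and without medLN 2 there were 0 (0.893%). The difference between organs was not called different between the gates for any gene (0 of 49, with 0.156% of all 11534 genes called, and 0 by DESeq2), and 0 had an unadjusted p below 0.05 (7% of all genes).

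The medLN and MLN difference turned with the mouse. After TMM scaling, 38 of 49 genes were higher in IL-4eGFP+ medLN than MLN cells in mouse 1 of this experiment, and in mouse 2 43 were lower. In IL-4eGFP- cells 36 were higher in mouse 1 and all 49 were lower in mouse 2. Shares of all genes within each mouse were not computed here either. *Isg15* shows it, at 258, 143, 246 and 241 CPM in IL-4eGFP+ medLN 1, medLN 2, MLN 1 and MLN 2 and 215, 117, 194 and 252 CPM in IL-4eGFP- cells. medLN 2 was the lowest sample of both gates, and the other 6 lay between 194 and 258 CPM.

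Within an organ, the mice of an experiment differed across most of the list in lung, in medLN and in MLN of the first experiment. They also did so, by a smaller median, in IL-4eGFP- MLN of the second. For genes whose mean reached 5 CPM, 0 of 41 were higher in lung 1 than in lung 2, with a median log2 difference of -0.75, while 46 of 47 were higher in MLN 1 than in MLN 2, with a median of 0.68. Over all genes at that level 33.0% were higher in lung 1 and 47.7% in MLN 1, with medians of -0.12 and -0.012. In medLN 44 of 45 genes were higher in mouse 1 in IL-4eGFP+ cells and 47 of 48 in IL-4eGFP- cells, with medians of 0.46 and 0.42 (45.5% and 49.1% of all genes). In MLN of the same mice 30 of 46 and 6 of 48 were higher in mouse 1, with medians of 0.05 and -0.18 (55.9% and 58.2% of all genes). The gates were sorted from the same organs of the same animals but run as separate libraries. Over the 49 genes the deviations of medLN 1 from the mean of both mice had a Pearson r of 0.63 between the gates, against 0.16 over all 11034 genes tested, and in MLN -0.16 against 0.18. The direction of the mouse difference was opposite in lung and MLN of the first experiment.

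**Figure D5:**
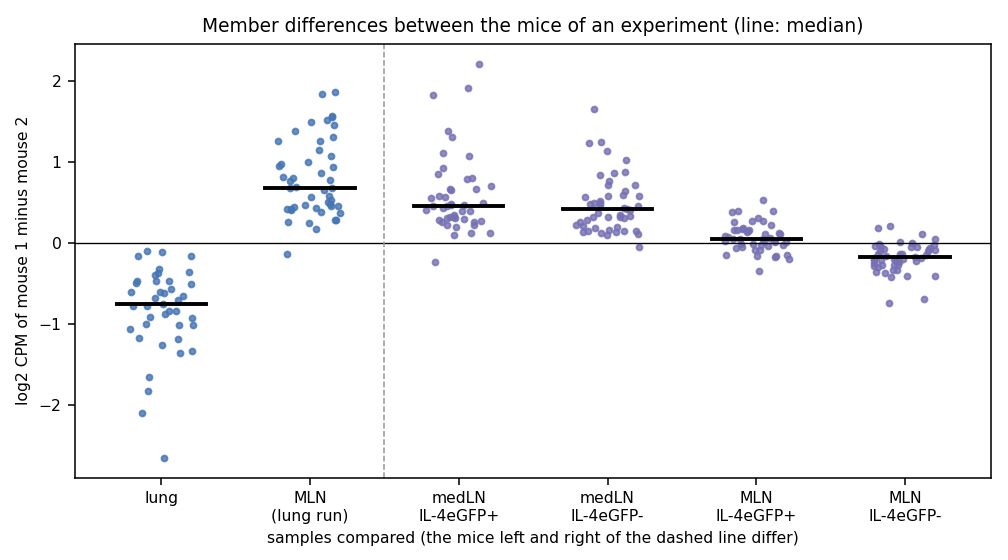
Log2 ratio of CPM of mouse 1 to mouse 2 for each gene whose mean reached 5 CPM (points), in the 2 organs of the first experiment and in the 4 organ and gate groups of the second, with the median as a bar. The mice left and right of the dashed line are different animals. All points of lung lie below 0, and nearly all of MLN in the first experiment and of medLN above it. In MLN of the second experiment the median is 0.05 in IL-4eGFP+ and -0.18 in IL-4eGFP- cells, where most points lie below 0.

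Between the gates of the node experiment most genes were lower in IL-4eGFP+ than in IL-4eGFP- cells. Of 49 tested, 38 were lower and 5 higher, with a median log2 fold change (IL-4eGFP+ minus IL-4eGFP-) of -0.66, where 63% of all 11034 genes were called, 31.8% lower and 31.3% higher, with a median of -0.021. Scaled by library totals alone, without TMM factors, the median of all genes moved to 0.18 and 33 of these genes were called lower and 6 higher (18.1% and 46.9% of all genes), with *Herc6*, *Gbp3*, *Parp14*, *Xaf1* and *Ifi44* no longer called. After TMM scaling the gates did not overlap for 28 genes that were lower (28.3% of all genes tested) and 2 that were higher (28.4%). In each of the 4 pairs of the same organ and mouse 39 to 43 of the 49 genes were lower, and the share of all genes per pair was not computed. Each gate was 1 library, so that gate and library cannot be told apart, and the 4 samples of a gate came from 2 mice.

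The largest difference was that of *Oas2*, a synthase of the RNase L pathway, at 2.75, 0.846, 2.29 and 1.89 CPM in IL-4eGFP+ medLN 1, medLN 2, MLN 1 and MLN 2 and 12.2, 7.18, 12.3 and 13.5 CPM in IL-4eGFP- cells. Every IL-4eGFP+ sample was below 3 CPM and every IL-4eGFP- one above 7 CPM, and the log2 fold change was -2.73 ± 0.25 (SE, edgeR adjusted p = 1.36e-06). *Iigp1*, a GTPase that breaks parasite vacuoles, stood at 5.60, 3.17, 6.55 and 5.29 CPM and 23.5, 21.1, 25.5 and 32.1 CPM in the same order. The gates were widely apart, with a log2 fold change of -2.51 ± 0.14 (SE, edgeR adjusted p = 1.81e-08). *Usp18*, the brake on IFNAR2, stood at 22.2, 8.99, 18.3 and 16 CPM and 62.6, 38.2, 52.2 and 69.4 CPM. Every IL-4eGFP- sample was above every IL-4eGFP+ sample, with a log2 fold change of -1.96 ± 0.22 (SE, edgeR adjusted p = 6.81e-06).

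*Oasl1* stood at 3.80, 1.16, 2.95 and 3.78 CPM in IL-4eGFP+ and 9.08, 8.38, 10.3 and 17.2 CPM in IL-4eGFP- samples, and *Oasl2* at 8.34, 1.80, 4.91 and 5.19 CPM and 18.9, 7.98, 20.1 and 17.4 CPM. *Oasl1* did not overlap between the gates, while in *Oasl2* IL-4eGFP+ medLN 1 was above IL-4eGFP- medLN 2 in CPM, which TMM scaling reversed. Their log2 fold changes were -2.13 ± 0.26 (SE, edgeR adjusted p = 1.61e-05) and -1.86 ± 0.33 (SE, edgeR adjusted p = 0.000353). *Ifit3* stood at 14.3, 4.02, 13.6 and 9.44 CPM and 29.7, 13.6, 25.1 and 40.3 CPM. medLN 2 was the lowest sample of each gate, and the gates overlapped in CPM but not after TMM scaling, with a log2 fold change of -1.59 ± 0.31 (SE, edgeR adjusted p = 0.00075). The other IFIT genes, all 8 GTPases, the 3 Schlafen genes, the 3 genes of the PARP group and *Irf7*, *Irf9* and *Stat2* were called lower as well, with *Gbp7* at -1.15, opposite to its direction in lung.

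The 5 genes called higher in IL-4eGFP+ cells had smaller differences. *Ifi27l2a* stood at 1849, 1350.0, 1465 and 1221 CPM in IL-4eGFP+ and 1092, 777, 915 and 848 CPM in IL-4eGFP- samples. The IL-4eGFP+ samples were all above the IL-4eGFP- ones, with a log2 fold change of 0.49 ± 0.11 (SE, edgeR adjusted p = 0.00209). *Ifih1* (MDA5) stood at 49.8, 41.5, 42.6 and 38.8 CPM and 33.9, 22.6, 28.3 and 28.8 CPM, without overlap, with a log2 fold change of 0.40 ± 0.11 (SE, edgeR adjusted p = 0.00701). *Ifih1* thus parted from the related sensor *Ddx58*, which was lower in IL-4eGFP+ cells by a log2 fold change of -1.13 ± 0.08 (SE, edgeR adjusted p = 1.66e-07). *Oas3*, *Lgals3bp* and *Phf11b* had log2 fold changes of 0.40, 0.34 and 0.24 and edgeR adjusted p values of 0.0499, 0.0183 and 0.0318, and each lost its call when single samples were left out.

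*Oas3* stood at 27.5, 15.9, 26.3 and 23.8 CPM in IL-4eGFP+ and 15.6, 10.5, 17.5 and 18.2 CPM in IL-4eGFP- samples, so it moved against *Oas2* of the same cluster on chromosome 5. IL-4eGFP+ medLN 2 lay within the range of the IL-4eGFP- samples. *Lgals3bp* stood at 107, 77.8, 94.7 and 91.7 CPM and 74.2, 54.0, 58.1 and 69.9 CPM, and *Phf11b* at 107, 86.6, 93.7 and 105 CPM and 69.6, 65.0, 70.7 and 85.4 CPM. For both, the lowest IL-4eGFP+ level was just above the highest IL-4eGFP- one in CPM, and the gates overlapped after TMM scaling. The 6 genes not called were *Isg15*, *Dhx58*, *Rsad2*, *Cmpk2*, *Isg20* and *Trim30a*, with log2 fold changes of -0.00083, -0.52, 0.13, 0.17, 0.087 and -0.27.

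Averaged over the samples, the sum per cell was not lower in IL-4eGFP+ cells, unlike most genes and the summed CPM. Over all cells of a sample the CPM sum was 5131, 3772, 4506 and 4143 in IL-4eGFP+ medLN 1, medLN 2, MLN 1 and MLN 2. In IL-4eGFP- cells it was 5400, 4189, 4870 and 5281, higher in each pair. Deep cells weigh more in such sums, while thinned cells weigh alike and cells below 2000 UMIs are left out. What made the measures differ was not tested. The mean per 2000 UMIs was 12.6, 9.13, 10.4 and 10.2 in IL-4eGFP+ medLN 1, medLN 2, MLN 1 and MLN 2 and 11, 8.60, 10.0 and 10.9 in IL-4eGFP- cells, a mean difference of 0.45. That difference was smaller than the SD over the 4 samples of each gate (1.47 and 1.12), and MLN 2 went the other way. Without *Ifi27l2a*, *Isg20* and *Bst2* the mean difference was -1.28. With all genes counted, cells with 20 or more made up 16.5%, 7.54%, 12.3% and 11.7% of the IL-4eGFP+ samples and 11.3%, 5.11%, 10.1% and 11.6% of the IL-4eGFP- ones. medLN 2 was the lowest in both gates.

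The gates also differed in some markers of other cells. The myeloid marker sum (6 genes) was 169 to 238 CPM in IL-4eGFP+ and 99 to 118 CPM in IL-4eGFP- samples. Most of it was *Cst3*, at 141 to 165 and 91.4 to 108 CPM, which had a UMI in 26.8% to 44.5% of the cells of a sample. The B cell sums, 148 to 239 and 198 to 230 CPM, overlapped. Cells with a defining B cell or myeloid UMI numbered 55 to 158 and 16 to 38. Without those cells 42 genes were called, 38 of them lower (63.4% of all genes called). Leaving out cells with any UMI of the B cell or myeloid markers, again most cells of each sample, kept 32 of the 43 calls. *Irf7*, *Stat2*, *Oas1a* and *Slfn5* were among the calls lost, 1 called gene was no longer tested and 1 other was newly called. Here too the share of all genes called is not given, so the loss cannot be set against it. With all cells thinned to 2000 UMIs 38 were called, 33 lower (50.2% of all genes called), and the median log2 fold change was -0.48. The 30 genes called in every setting included *Usp18*, *Oas2*, *Oasl1*, *Oasl2*, *Iigp1*, *Ifit1*, *Ifit3*, *Ifi47*, *Ifi27l2a* and *Ifih1*.

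Of 23 pathway genes tested between the gates 13 were called lower and 5 higher in IL-4eGFP+ cells, beside 31.8% and 31.3% of all genes. By library totals alone 9 were lower and 7 higher, beside 18.1% and 46.9% of all genes. *Socs1*, the feedback inhibitor of JAK kinases and itself a cytokine target, stood at 121, 142, 91.6 and 122 CPM in IL-4eGFP+ medLN 1, medLN 2, MLN 1 and MLN 2 and 345, 374, 233 and 323 CPM in IL-4eGFP- samples. The gates did not overlap, with a log2 fold change of -1.61 ± 0.11 (SE, edgeR adjusted p = 8.18e-08). *Ifngr1* and *Ifngr2*, which were higher in lung than in MLN, were lower in IL-4eGFP+ node cells, at -1.36 ± 0.14 (SE, edgeR adjusted p = 4.61e-06) and -1.43 ± 0.07 (SE, edgeR adjusted p = 5.74e-09) on the log2 scale. *Irf1*, a target of interferon gamma, was lower as well, at -1.19. *Jak2* stood at 130.0, 135, 136 and 131 CPM and 45.8, 46.3, 48.7 and 45.7 CPM, higher in every IL-4eGFP+ sample, with a log2 fold change of 1.32 ± 0.04 (SE, edgeR adjusted p = 1.94e-10).

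*Ifi204*, a DNA sensor of the p200 family, stood at 10.6, 3.81, 9.71 and 7.27 CPM in IL-4eGFP+ and 0.260, 0.133, 0.124 and 0.382 CPM in IL-4eGFP- samples. It was close to absent from the IL-4eGFP- library (1 to 3 UMIs per sample), with a log2 fold change of 4.84 ± 0.50 (SE, edgeR adjusted p = 3.49e-06). *Ifnar1* and *Ifnar2* were not called between the gates, at -0.13 and -0.025. Between medLN and MLN 0 of 23 pathway genes were called in IL-4eGFP+ cells and 0 of 22 in IL-4eGFP- cells by edgeR. In edgeR 3 and 5 had an unadjusted p below 0.05 (12.4% and 6.23% of all genes), and DESeq2 called 0 in both.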

How the data were processed

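UMI counts per gene and cell were deposited by the authors as 10x matrices (Chromium Single Cell 5′ chemistry). Per the file headers and the labels, Cell Ranger 3.0.1 (mm10) made the lung and MLN counts, with both sequencing runs of a library combined, and Cell Ranger 6.1.2 aligned and aggregated the node libraries. Reads may have been thinned at aggregation. The study's filters were applied to cells (over 500 UMIs, over 500 genes, under 7% mitochondrial UMIs, novelty over 0.8), plus a productive TCR alpha and beta chain in lung and MLN. The gate of a node cell was read from the library number at the end of its barcode, matched to the number that ends the sample titles. Node cells were assigned by hashtag at the 0.99 quantile, which removed 1256 and 1280 hashtag doublets. No other doublet caller was run, so doublets within a hashtag sample or a lung or MLN library remain, and their part in the values per cell was not tested. TCR genes were left out. Counts were summed per sample and tested with edgeR 4.0.16 (quasi-likelihood, filterByExpr, TMM, Benjamini-Hochberg over all genes tested), with DESeq2 1.42.0 as an alternative. Levels printed in CPM are scaled by total UMIs, and fold changes and statements after TMM scaling also by the TMM factors. The edgeR test gives no standard error. Each SE printed is the absolute log2 fold change divided by the square root of the F statistic of its test, and so is approximate. The test was run on simulated sums of independent samples with log2 changes of 2 in either direction. For lung against MLN it called 194 of 199 changed genes and 17 unchanged ones. Between medLN and MLN it called 193 of 200 and 17 in IL-4eGFP+ and 199 of 199 and 10 in IL-4eGFP- cells. Between the gates it called 200 of 200 and 6. Every gene was simulated with the spread that the fitted trend gives for its level. Smaller changes, genes that vary more than this trend and samples that share a mouse were not simulated. The genes and lists were chosen with earlier results of these data known. Values in every sample are given for up to 6 called genes per direction with the largest change and the most abundant gene of each role. Organs and gates of 1 mouse share the animal, so the mouse pairs them. Deviations of same-mouse samples correlated at 0.0398, 0.24 and 0.12 between organs and 0.16 and 0.18 between gates. Some genes are not reported here. Alternatives are given at the end.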

Additional observations from a re-analysis of the deposited data

Results flagged for a closer look

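Of 102 groups of 4 hashtag samples examined, 5 held a sample whose gap to the others was large for the range of the group by Dixon's 95% limit, where chance gives about 1 in 20 groups. All 5 were among IL-4eGFP+ samples. *Isg15* was 143 CPM in medLN 2 against 241 to 258 CPM in the other 3, *Bst2* 103 against 146 to 155 CPM, *Ifi47* 181 against 213 to 218 CPM and *Dtx3l* 44.1 against 53.3 to 54.6 CPM, all low in medLN 2. *Samd9l* was 42.1 CPM in medLN 1, above the 35.1 to 35.5 CPM of the others.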

How the results depend on the processing

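Depth limits the rarest genes most, and 2 mice per group limit every test. For lung against MLN the 32 calls became 14 with DESeq2 and ranged from 10 to 43 when 1 library was left out, fewest without MLN 1 (10) and without lung 1 (18). For medLN against MLN the single call in IL-4eGFP+ cells became 0 with DESeq2, 0 with no filter on low counts, 0 in thinned cells and 0 without cells that held any B cell or myeloid UMI, and 0 to 1 when 1 sample was left out. In IL-4eGFP- cells the 0 calls became 0 to 23 when 1 sample was left out. Pathway genes ranged from 0 to 1 in IL-4eGFP+ and 0 to 3 in IL-4eGFP- cells in the same way. The per-cell difference between the gates went from 0.45 to -1.28 without *Ifi27l2a*, *Isg20* and *Bst2*. With the mouse as a replicate block the counts were 42 for lung against MLN, 1 and 0 for medLN against MLN, 45 for the gates and 0 for the interaction, and for pathway genes 14, 0, 1, 17 and 1 in the same order. Of all genes, 36.7% were called with the block for lung against MLN. For the other comparisons that share is not given, so those counts have no background beside them. The setting without cells that held a defining B cell or myeloid UMI was not among those planned. By library totals alone, a choice made after seeing the data, *Irf3* turned from lower to 0.031 (adjusted p = 0.637) between the gates. No other called gene changed sign in any setting, and the cause of the lost calls was not tested.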
